A study of Mus musculus with 11 samples.

Results

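The mRNA that excitatory neurons of the mouse cortex and hippocampus held on their ribosomes was compared between postnatal day 7 (P7) and postnatal day 14 (P14), 1 week apart. The genes described are those with at least 1 TPM in at least 2 of the 6 libraries compared, 16563 of the 77179 genes in the deposited table. TPM gives each gene's share of a library after correction for transcript length, on a total that is the same in every library, so sequencing depth cannot be read from it. Of the 16563 genes, 14449 passed this limit at both ages, 847 passed it at P7 alone and 991 at P14 alone, and 276 reached it only through 1 library of each age. The limit falls among many genes of low level: 373 genes had a second-highest value of 1 to 1.1 TPM, just inside it, and 408 one of 0.9 to 1 TPM, just outside.

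The 3 libraries at P7 and the 3 at P14 carry the same genotype, NEX-Cre;Rpl10aeGFP/eGFP. Cre recombinase is made from the Neurod6 (NEX) locus, which is active in glutamatergic principal neurons of the forebrain, and it switches on a GFP-tagged form of the ribosomal protein Rpl10a in them. The tagged ribosomes were pulled down from cortex and hippocampus, processed together, with beads carrying antibodies to GFP, and their polyadenylated RNA was sequenced (TRAP, translating ribosome affinity purification). The label calls the 3 libraries of an age biological replicates. The sex of the mice and whether tissue of several mice was pooled are not stated in the labels, and cortex and hippocampus cannot be told apart in these values. Values of the pull-down libraries of the same genotype at P21 (n = 3) and of whole-tissue input at P7 are given below only for reference. In the tests, however, all 11 libraries entered 1 fit, so these libraries also shaped the estimate of the spread and the set of genes tested. Input replicate 1 is NEX-Cre;Rpl10aeGFP/eGFP and input replicate 2 is Rpl10aeGFP/eGFP without Cre.

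In the mouse forebrain, this week spans the end of most axon growth and the main wave of synapse formation. Excitatory neurons extend spiny dendrites, receive thalamic and cortical input, and replace several embryonic forms of channels, receptors and cytoskeletal proteins with adult forms. The eyes open near its end, and sensory experience then begins to drive firing in the visual cortex. Ribosome-bound mRNA is closer to what a cell type is translating than total RNA, but it reports the amount of bound message, not the rate at which protein is made.

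Markers of excitatory neurons were abundant in the pull-down at both ages, beside lower levels of markers of other cells. The 24 excitatory markers summed to 6364 to 6902 TPM at P7 and 11737 to 12966 TPM at P14, against 5471 and 5696 TPM in the P7 input. Of the 23 expressed, 13 rose and 8 fell, with a median log2 change of 0.33. The 24 inhibitory markers summed to 214 to 230 and 186 to 198 TPM, against 1358 and 1471 TPM in the P7 input. In bulk libraries of this kind, fewer cells of a type and less RNA per cell cannot be told apart. Neurod6 itself fell from 152 ± 13.4 TPM (mean ± SD, n = 3) to 94.8 ± 1.83 TPM. Rpl10a, whose values combine the endogenous and the tagged copy, was at 3638 ± 240 and 3495 ± 123 TPM and did not pass the test (limma adjusted p = 0.866). Glial markers were detected too: the astrocyte markers summed to 309 to 400 TPM at P7 and 650 to 745 TPM at P14, with the astrocyte marker Gfap at 8.4 and 11.6 TPM and the microglial Cx3cr1 at 0.671 and 1.78 TPM. Across the tested genes, libraries of 1 age correlated at Pearson r of 0.988 to 0.991 and libraries of different ages at 0.956 to 0.968. Between 15373 and 15658 genes reached 1 TPM in each library. Sex-linked transcripts split the libraries alike at both ages, with Y-linked Ddx3y in replicates 1 and 2 and Xist in replicate 3, and neither passed the test between ages. P14 replicate 1 stood apart in haemoglobin and red cell genes (702 TPM in sum, against 300 to 326 in the other P14 and 293 to 399 in the P7 libraries), none of which passed the test.

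Changes between the ages were widespread and split almost evenly between higher and lower. Each gene was tested with limma on log2(TPM + 1), with Benjamini-Hochberg adjustment over all 19008 genes tested in the series, and the call was an adjusted p below 0.05. Of the 16563 genes, 4861 rose (29.3%) and 4239 fell (25.6%), against 26.7% and 22.8% of all genes tested. The median change among those that rose was 0.53 on the log2 scale, and among those that fell it was 0.52 in size, with a median SE of 0.09 in both. Changes of at least 2-fold on that scale were made by 830 genes that rose and 634 that fell (4.38% and 3.34% of all tested). These counts depend on the pseudocount: 1272 and 1006 genes passed 2-fold with a pseudocount of 0.1, and 366 and 270 with one of 5. The median over all genes tested was 0.03. Rescaling the libraries turned the balance of calls among the 16563 genes, which was 4861 higher and 4239 lower. Median-of-ratios scaling gave 4369 higher and 4806 lower, and quantile normalisation gave 4482 and 4680. A fold change on the log2(TPM + 1) scale understates the change of genes of low level, and the SE was largest there, with a median of 0.14 for genes whose higher mean was under 5 TPM. All 3 P14 libraries lay above all 3 P7 libraries in 33.0% of the 16563 genes and 31.1% of all genes tested. They lay below in 29.3% and 26.7%. A lack of overlap between the ages, given for single genes below, was thus common.

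In terms of the library as a whole, genes that rose held 25.7% to 27.6% of the TPM at P7 and 40.8% to 42.9% at P14. Genes that fell held 44.9% to 46.9% at P7 and 29.7% to 31.4% at P14. These genes were picked by their change in the same libraries, so the direction of both shifts was fixed by the choice and only their size is described. TPM is a closed sum, so a rise in some abundant genes lowers the share of the others. The plot of change against level shows called genes at every level.

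**Figure D1:**
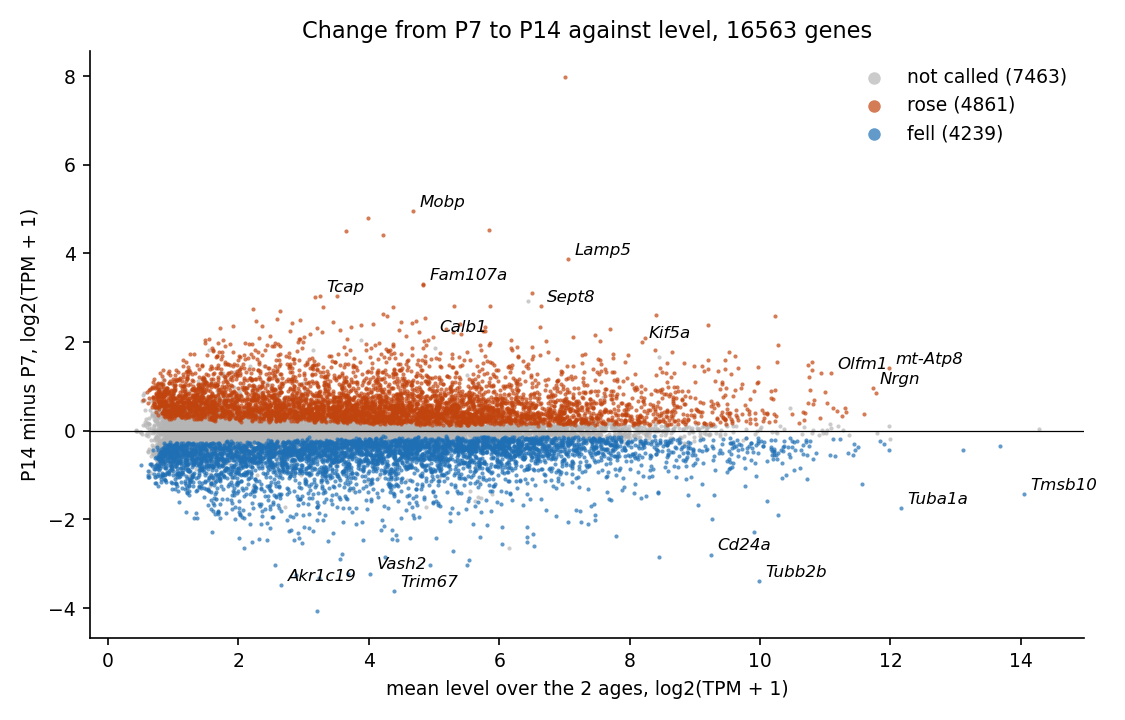
Change from P7 to P14 (vertical axis, log2 TPM + 1) against the mean level over both ages (horizontal axis, log2 TPM + 1), 1 point per gene, coloured by the call at limma adjusted p below 0.05. The 4861 genes that rose and the 4239 that fell spread over all levels, and Tmsb10, Tuba1a and Tubb2b are abundant genes that fell while Nrgn, Olfm1 and mt-Atp8 are abundant genes that rose.

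The 12 largest falls joined genes of the immature neuron with genes of other roles. Vash2, a vasohibin that removes the terminal tyrosine of alpha-tubulin, stood at 31.9, 27.4 and 25.9 TPM in the P7 libraries and at 1.98, 2.12 and 2.31 TPM at P14. All 3 P14 values lie far under the lowest P7 value, a ratio of means of 13.3 and a log2 change of -3.22 ± 0.14 (SE; limma adjusted p = 2e-07). Cd24a, a small glycoprotein anchored to the surface of young neurons, went from 1137, 1053 and 992 TPM to 128, 152 and 180 TPM, again with no overlap between ages (-2.79 ± 0.14, limma adjusted p = 2.45e-07). Fam131c was at 67.5, 53.2 and 40.6 TPM and then at 4.78, 6.33 and 5.59 TPM, so the P7 libraries spread widely and still stayed clear of P14 (-3.04 ± 0.16, limma adjusted p = 4.01e-07).

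Other genes among the 12 largest falls have roles in signalling, metabolism or secretion. Trim67, a neuronal member of a family of ubiquitin ligases, had the largest log2 change, -3.62 ± 0.12. Ddah2, of the dimethylarginine dimethylaminohydrolase family, fell from 80.1 ± 14.3 to 8.87 ± 1.18 TPM, the kinase gene Stk32b from 20 ± 2.71 to 2.03 ± 0.21 TPM, and C1qtnf2, which encodes a secreted C1q-related protein, from 19.8 ± 1.53 to 1.82 ± 0.514 TPM (SD, n = 3). Akr1c19, an aldo-keto reductase gene, was at 13.4, 8.82 and 9.62 TPM at P7 and at 0.0241, 0.0225 and 0.0265 TPM at P14, which leaves it near 0 in every P14 library. The sialyltransferase gene St8sia2, which builds polysialic acid on the adhesion molecule Ncam1, was also among the 12 (-3.23 ± 0.09), and so were the microtubule-linked genes Dcx (-2.72 ± 0.12), Dpysl3 (-2.85 ± 0.13) and Tubb2b (-3.39 ± 0.13). In all 12, the 3 libraries of 1 age do not overlap those of the other, which the naming rule required. The rule required the same of the 12 largest rises and of the largest gains and losses of mean TPM described below.

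Of 30 genes known for immature neurons and neurite growth, all of them expressed here, 29 fell and 1 rose, with a median log2 change of -1.28. The single gene that rose was Dclk1, a relative of Dcx that also binds microtubules, at 148 ± 14.2 TPM at P7 and 238 ± 7.17 TPM at P14 (0.69 ± 0.08, limma adjusted p = 7.05e-05). Tmsb10, a thymosin that holds monomeric actin, had the largest loss of mean TPM in the data: 26237, 22561 and 25343 TPM at P7 and 8401, 9155 and 10199 TPM at P14. Tuba1a, the main alpha-tubulin of young neurons, followed with 7626, 6954 and 6624 and 1926, 2139 and 2246 TPM. In both genes even the lowest P7 library was far above the highest P14 library. Stmn1, which destabilises microtubules, went from 4201 ± 311 to 1832 ± 85.1 TPM and Tmsb4x from 10179 ± 413 to 7492 ± 303 TPM, although with quantile normalisation the change of Tmsb4x did not pass the test. Tubulin and thymosin genes have close copies, and no label says how reads shared by copies were divided.

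Among 31 tubulin, neurofilament and microtubule protein genes, 17 fell and 7 rose, and the median log2 change was -0.21. Besides the tubulins above, Tubb3 fell (-1.58 ± 0.09), and Mapt, which encodes tau and was chosen after its values were seen, fell from 459, 410 and 417 TPM to 143, 154 and 151 TPM (-1.51 ± 0.09, limma adjusted p = 7.24e-07). The risers were led by Tuba8 (1.29 ± 0.10), Tuba4a (1.28 ± 0.10) and Nefh (1.16 ± 0.14), the heavy neurofilament subunit. Nefh was at 4.39, 5.89 and 5.7 TPM at P7 and 13.3, 13.6 and 12.4 TPM at P14. Of 29 motor genes, 8 rose (27.6%) and 6 fell (20.7%), near the 26.7% and 22.8% of all genes tested, and Kif5a, a neuronal kinesin-1 heavy chain that carries cargo along axons, stood out within the list. Its values were 91, 127 and 126 TPM at P7 and 578, 429 and 390 TPM at P14, with no overlap (2.01 ± 0.16, limma adjusted p = 3.39e-06). The largest falls among motors were in Dync1i2 (-0.78 ± 0.06), a dynein intermediate chain, Myo6 (-0.77 ± 0.15) and Kif26b (-0.72 ± 0.10).

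**Figure D2:**
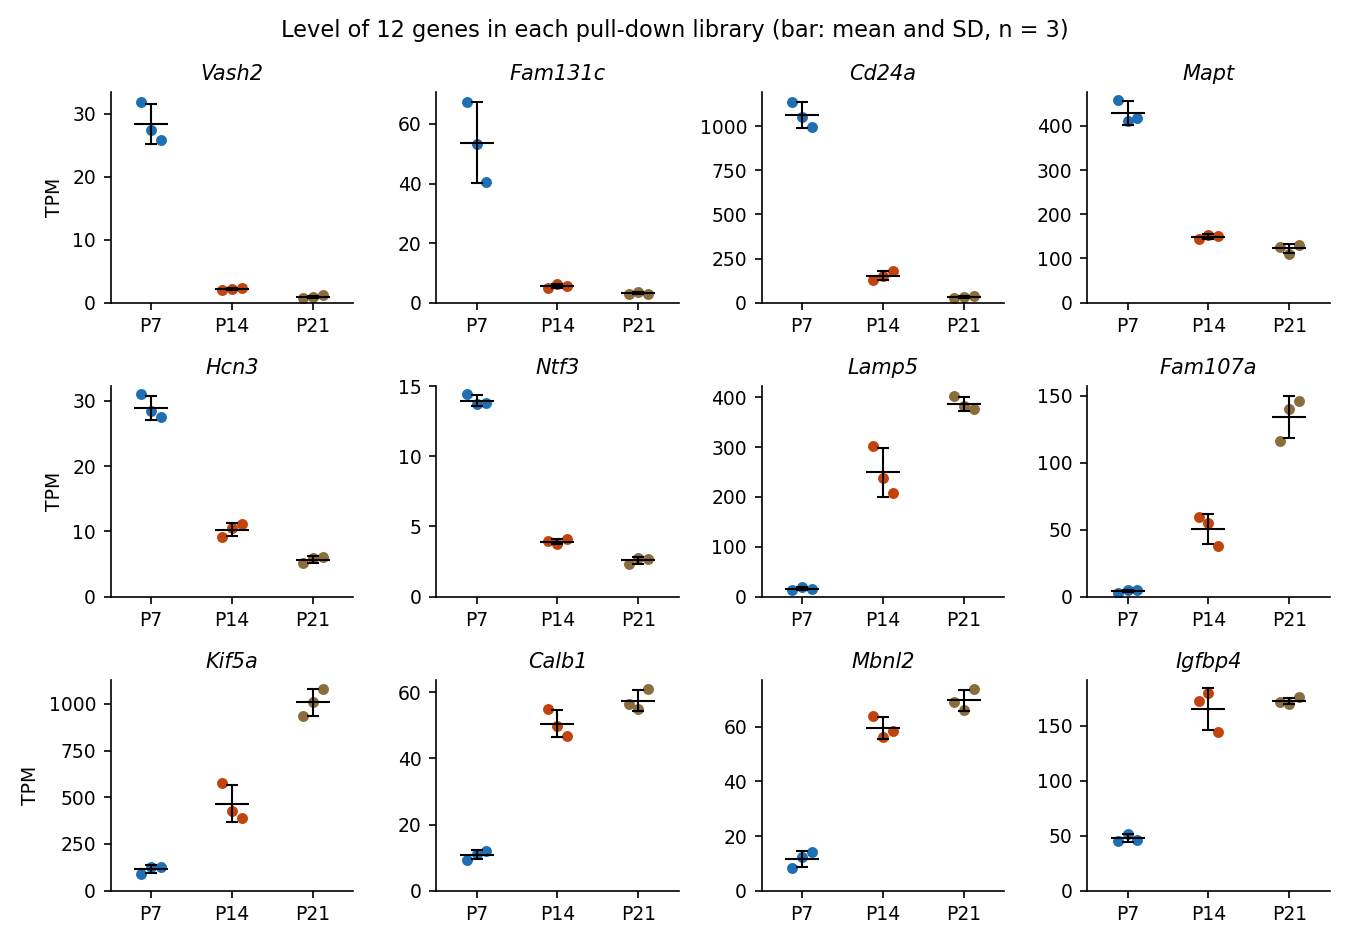
TPM (vertical axis, from 0) of 12 genes in each of the 3 pull-down libraries at P7, P14 and P21, with the mean and SD of each age. In the first 6 panels every P14 library lies under every P7 library, and in the last 6 every P14 library lies above.

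The 12 largest rises joined neuronal genes, myelin genes and genes better known from other tissues. Lamp5, a lysosome-associated membrane protein of neurons, rose from 13.4, 18.9 and 15.8 TPM to 303, 238 and 207 TPM, a ratio of means of 15.6, with every P14 library far above every P7 library. Fam107a, a stress-responsive protein that binds actin, rose from 3, 5.01 and 4.69 to 59.1, 55.1 and 38 TPM (3.30 ± 0.19, limma adjusted p = 6.18e-07). Sept8, a septin of the membrane cytoskeleton, rose from 20.7, 25 and 25.5 to 190, 169 and 162 TPM (2.82 ± 0.10). Tcap, known as a sarcomere protein of muscle, was at 0.783, 1.09 and 1.31 TPM, near the 1 TPM limit, and then at 18.4, 14.5 and 14.7 TPM. Wfdc18, a gene for a small secreted protein, went from 1.04 ± 0.634 to 15.1 ± 3.22 TPM. Ighm, the immunoglobulin mu heavy chain, was at 32, 13.7 and 13 TPM at P14, of which replicate 1 is the high value, against 0.762, 1.31 and 2.02 TPM at P7. Chn1os1 was listed at 0 in every P7 library and at 35.1, 20.6 and 14.1 TPM at P14. An exact 0 in a table without counts can be a failed estimate, so no ratio is given for Chn1os1. This gene is antisense to Chn1, itself at 440 and 1181 TPM. No label says whether strand was used in quantifying, so the reads of the pair cannot be told apart.

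Myelin genes of oligodendrocytes were among the largest rises, with Mobp at 4.95 ± 0.22 and Mbp at 3.11 ± 0.18. Mobp, a basic protein of compact myelin, was at 0.338, 1 and 0.529 TPM in the P7 pull-down and 51.4, 55.2 and 39.9 TPM at P14, and at 5.36 and 10.2 TPM in the P7 input. Mag, an adhesion protein of myelin, was at 0.673, 0.722 and 0.535 TPM, then 11, 10.3 and 8.14 TPM, and at 7.37 and 9.66 TPM in the P7 input. Of 15 oligodendrocyte markers expressed here, 12 rose and 2 fell, Tspan2 (-0.65 ± 0.15) and Gpr37 (-0.47 ± 0.09). The summed level of all 20 entries of that list was 65.9 to 73.1 TPM at P7, 343 to 454 TPM at P14, and 259 and 339 TPM in the P7 input. Mag and Mobp lay below the P7 input in the P7 pull-down, with log2 differences of -2.52 ± 0.18 and -2.40 ± 0.25 on log2(TPM + 1).

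Markers of other cell types moved as well. In the astrocyte list, 17 of 19 expressed markers rose and none fell, and the sum in the P7 input was 4138 and 4590 TPM. Slc1a2, the main glutamate transporter of astrocytes, went from 21 ± 4.93 to 81 ± 5.45 TPM, and Gjb6, a connexin of their gap junctions, from 1.35 ± 0.21 to 10.5 ± 3.54 TPM. In the microglial list 13 of 16 rose and 1 fell, and the sum went from 34.3 to 42.6 TPM to 58.7 to 74.4 TPM. Oligodendrocyte precursor markers summed to 298 to 307 TPM at P7 and 222 to 242 TPM at P14, with 7 of 14 higher and 3 lower. Endothelial markers summed to 98.2 to 121 TPM and 151 to 163 TPM, with 4 of 11 higher and 1 lower. Of 21 inhibitory markers 5 rose (23.8%) and 6 fell (28.6%), near the 26.7% and 22.8% of all genes tested. Npy (-0.77 ± 0.14) and Reln (-0.53 ± 0.12) fell most and Pvalb rose most (1.99 ± 0.11). Gad1, a GABA-synthesising enzyme, was at 6.27 ± 1.68 and 8.91 ± 0.584 TPM (limma adjusted p = 0.0302), a call that ended without P7 replicate 1 or 3 (limma adjusted p = 0.0723 and 0.107) or P14 replicate 1 or 2 (limma adjusted p = 0.0804 and 0.0775), with no filter (0.0896) or with only the 6 libraries compared (0.059). Of the markers of mural cells 2 of 8 were higher (25%), and of choroid plexus and ependyma 1 of 5 was higher and 1 lower (20% each). Of those of striatum and thalamus 4 of 11 were higher (36.4%) and 3 lower (27.3%). These small counts moved with the setting. Without P14 replicate 1, with no filter or with only the 6 libraries compared, none of the mural markers was higher, without P14 replicate 1, 3 of the choroid markers were, and without P14 replicate 3 or with no filter, 1 striatal or thalamic marker was lower. The striatal and thalamic sum was 142 to 148 TPM at P7 and 181 to 206 TPM at P14. No marker of the astrocyte, oligodendrocyte, microglial, precursor, endothelial and inhibitory lists was listed at 0 in all 6 libraries. Of the 20 astrocyte markers 1 was under 1 TPM in all 3 P7 libraries, of the 20 oligodendrocyte markers 12, of the 20 microglial markers 9 and of the 24 inhibitory markers 4. The part of RNA from other cells in the results below was not tested, and genes that glia also express, such as Aldoc, Slc2a1 and S100b, are read beside these sums.

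**Figure D3:**
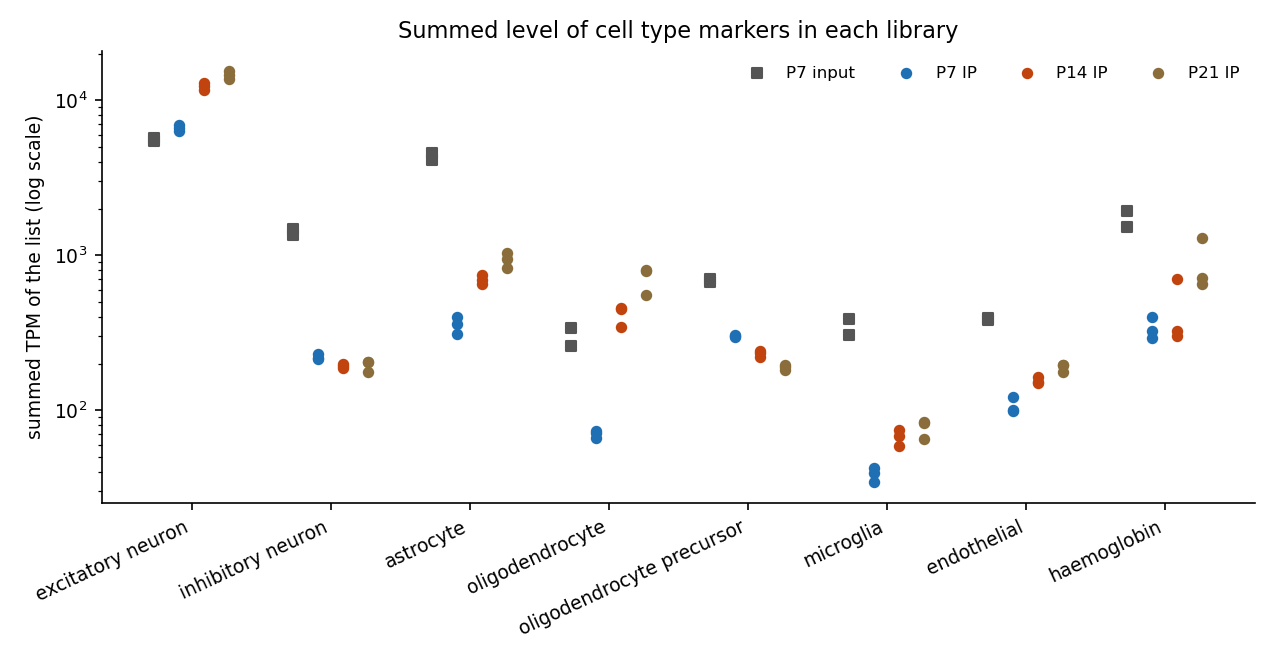
Summed TPM of 8 marker lists (vertical axis, log scale) in each of the 11 libraries, squares for P7 input and circles for the pull-downs. Oligodendrocyte, astrocyte and microglial sums lie higher at P14 than at P7 in the pull-down, inhibitory neuron sums lie a little lower, and the excitatory sum rises from 6364 to 6902 TPM to 11737 to 12966 TPM.

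Some messages appeared or disappeared at the 1 TPM limit. In all 3 P7 libraries 318 genes were under 1 TPM and in all 3 P14 libraries at or above it, and 273 did the reverse. These groups are defined by the values themselves, so no test is given for them. Besides Mobp, Mag and Chn1os1, the highest of the first kind were Ankrd33b, an ankyrin-repeat gene, at 0.659, 0.889 and 0.828 TPM at P7 and 9.29, 9.41 and 8.95 TPM at P14, and Igfbp6, a secreted binding protein of insulin-like growth factors, at 0.536, 0.782 and 0.615 and 9.99, 7.36 and 5.52 TPM. The 3 Ankrd33b values at P14 are nearly equal, whereas Igfbp6 varied more among them.

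The highest of the second kind, besides Akr1c19, were P2rx2, an ATP-gated cation channel subunit, at 9.63, 10.9 and 8.12 TPM at P7 and 0.227, 0.43 and 0.234 TPM at P14, and Glipr2 at 8.16 ± 0.826 and 0.672 ± 0.159 TPM. Avpr1a, the V1a vasopressin receptor, was at 7.46, 7.26 and 7.51 TPM in the P7 libraries, which are nearly equal, and at 0.433, 0.536 and 0.704 TPM at P14. Draxin, a secreted repellent of growing axons, was at 8.31, 6.36 and 5.89 TPM and then at 0.404, 0.228 and 0.454 TPM. In the P7 input, Avpr1a was at 2.43 and 3.47 TPM and P2rx2 at 3.86 and 2.91 TPM, below every pull-down library of that age, whereas Draxin was at 8.86 and 6.94 TPM, within the range of or above the pull-down.

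The gains of mean TPM were largest in mitochondrial and synaptic messages: mt-Atp8 (2250 to 5827 TPM), Nrgn (2306 to 4501 TPM), Cox8a (2516 to 4508 TPM), Olfm1 (1259 to 3089 TPM) and mt-Atp6 (906 to 2663 TPM). Nrgn encodes neurogranin, which binds calmodulin in spines, and had values of 2198, 2451 and 2268 TPM at P7 and 4792, 4537 and 4175 TPM at P14. Olfm1, a secreted olfactomedin of synapses, had 1212, 1319 and 1246 and 3280, 3157 and 2830 TPM. In both, the 3 libraries of an age lie close together and the ages are well apart (0.96 ± 0.07 and 1.29 ± 0.09, limma adjusted p = 2.86e-06 and 1.23e-06).

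Messages for proteins of the postsynaptic density and spine rose almost as a group: 29 of 32 genes rose and 1 fell, with a median log2 change of 0.97. The largest rises were in Dlg1 (1.86 ± 0.11), a scaffold that binds glutamate receptors, Kalrn (1.86 ± 0.11), a guanine nucleotide exchange factor that shapes spines, and Camk2a (1.77 ± 0.12), the alpha subunit of the calcium-dependent kinase of long-term potentiation. Camk2a was at 147, 194 and 210 TPM at P7 and 646, 628 and 586 TPM at P14. The gene that fell, Dlgap4, is a scaffold of the same family as the risers Dlgap1 to Dlgap3, and went from 265, 260 and 222 TPM to 185, 194 and 184 TPM (-0.40 ± 0.09, limma adjusted p = 0.00327).

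Vesicle and release genes rose in 33 of 42 cases and fell in 6, with a median of 0.69. Vamp1 (1.55 ± 0.11), a vesicle SNARE, and Sv2b (1.47 ± 0.11) rose most besides the vesicular glutamate transporter Slc17a7 (1.55 ± 0.10). The 6 falls were in Doc2a (-0.96 ± 0.07), a calcium sensor of spontaneous release, Rab3b (-0.85 ± 0.07), Rims3 (-0.72 ± 0.12), Syn3, Slc17a6 and Syt4. Doc2a stood at 87, 90.3 and 86.8 TPM at P7 and 43.1, 44.9 and 46.2 TPM at P14, so the ages are far apart beside the small spread within each. Rab3b, a vesicle GTPase, went from 139 ± 10.1 to 76.8 ± 6.57 TPM, whereas Rab3a, which was chosen after its values were seen, went from 571 ± 36.2 to 867 ± 35.2 TPM.

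Of 29 glutamate receptor genes 15 rose (51.7%) and 6 fell (20.7%), with a median of 0.25. Over all genes tested the shares were 26.7% and 22.8%, so the share that fell lies near that of all genes. Cacng3 (2.11 ± 0.11), an auxiliary subunit of AMPA receptors, led the rises, followed by Grin2c (1.48 ± 0.12) and Gria3 (1.47 ± 0.09). Grin2c stayed low, at 0.418, 0.478 and 0.403 TPM and then 2.78, 3.58 and 2.68 TPM, and its P7 input values were 3.06 and 3.27 TPM. The falls were led by Neto2 (-0.88 ± 0.10), an auxiliary subunit of kainate receptors, Grin2d (-0.78 ± 0.13) and Cnih2 (-0.55 ± 0.11), which escorts AMPA receptors. Cnih2 was at 2663, 2615 and 2451 TPM at P7 and 1630, 1785 and 1853 TPM at P14, with no overlap between ages. On the inhibitory side, 11 of 18 genes for GABA receptors and chloride transport rose, 1 fell, and the median was 0.37. Gabrd (1.87 ± 0.09), the delta subunit of extrasynaptic receptors, rose most, and Gabra5, an alpha subunit abundant in the hippocampus, fell from 149, 178 and 168 to 119, 126 and 127 TPM (-0.41 ± 0.07).

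Ion channel genes rose in most families. Of 39 potassium channel genes 33 rose and 2 fell, with a median of 0.61. Kcnip3 (1.54 ± 0.09), a calcium-binding partner of Kv4 channels, Kcna2 (1.49 ± 0.11), a Kv1 subunit of axons, and Kcnab2 (1.46 ± 0.08), its cytoplasmic beta subunit, rose most. Kcna2 was at 4.41, 5.05 and 6.23 TPM at P7 and 17.6, 15.5 and 15.9 TPM at P14. The 2 that fell were Kcnip1 (-0.79 ± 0.07), another Kv4 partner, at 30.3, 33.4 and 27.9 TPM and then 17, 17.1 and 17.3 TPM, and the calcium-activated channel gene Kcnn1 (-0.45 ± 0.11).

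Of 28 sodium, calcium and HCN channel genes 19 rose and 5 fell, with a median of 0.46. The sodium channel beta subunits Scn2b (1.94 ± 0.12) and Scn4b (1.80 ± 0.10) led. Scn4b was at 0.369, 0.346 and 0.374 TPM and 3.85, 3.92 and 3.47 TPM. Among the HCN channels, which carry the current activated by hyperpolarisation, Hcn4 fell from 8.37, 7.98 and 8.21 TPM to 2.33, 1.9 and 2.45 TPM (-1.51 ± 0.10, limma adjusted p = 1.27e-06) and Hcn3 from 31, 28.4 and 27.5 to 9.12, 10.6 and 11.1 TPM (-1.41 ± 0.09, limma adjusted p = 7.31e-07). The third largest fall of the list, Scn3a, is a sodium channel of the embryonic brain (-0.45 ± 0.13), and its call ended without P7 replicate 3 or P14 replicate 1 (limma adjusted p = 0.0631 and 0.0654). Without either library, 17 genes of the list rose and 3 fell.

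Genes for pumps and calcium-binding proteins rose in 21 of 28 cases and fell in 2, with a median of 0.64. Calb1, the calcium buffer calbindin, went from 9.29, 11.2 and 12 TPM to 54.8, 49.9 and 46.7 TPM (2.13 ± 0.13, limma adjusted p = 6.85e-07). Slc24a2, an exchanger that moves calcium out in return for sodium, went from 5.8, 7.37 and 9.37 to 34.5, 29.7 and 31 TPM. No library of 1 age overlaps the other in either gene. Slc8a3 (-0.39 ± 0.08) and Atp1b3 (-0.19 ± 0.04) fell.

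**Figure D4:**
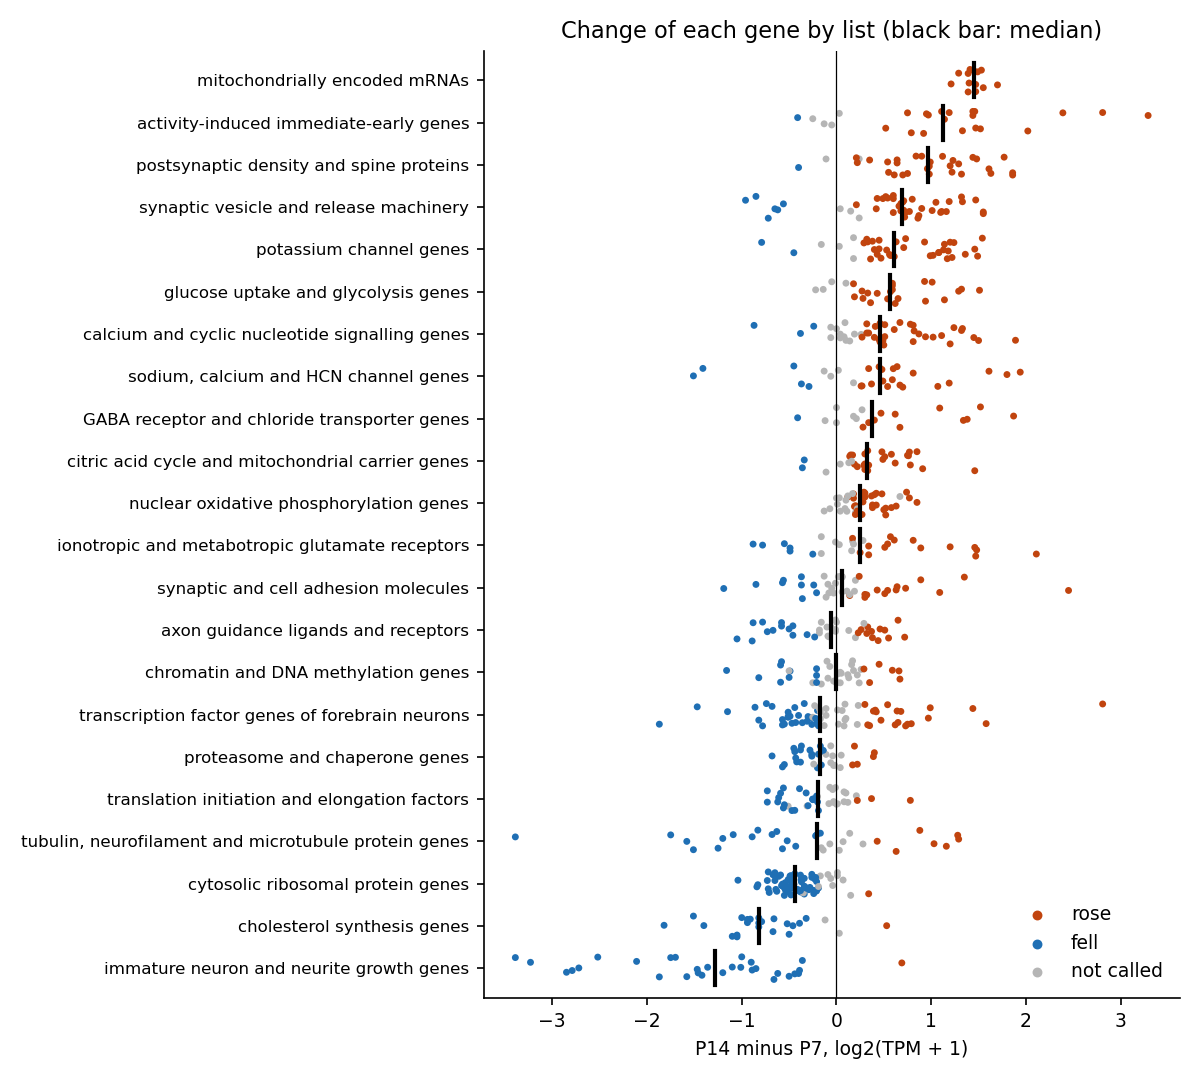
Log2 change from P7 to P14 (horizontal axis) of each expressed gene in 22 of the lists, 1 point per gene, coloured by the call, with a black bar at the median of the list. Medians run from -1.28 for immature neuron genes to 1.45 for mitochondrially encoded mRNAs, and the median over all genes tested was 0.03.

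Downstream of these channels, 30 of 44 calcium and cyclic nucleotide signalling genes rose and 3 fell, with a median of 0.46. Rasgrp1, a diacylglycerol-dependent Ras activator, went from 25.3, 33.9 and 36.8 TPM to 131, 112 and 117 TPM (1.89 ± 0.14). Rgs14, a brake on G protein signals in hippocampal CA2, at 5.77 ± 0.958 and 18 ± 0.212 TPM, and Rasgrf1 (1.45 ± 0.12), a calcium-dependent Ras activator, came next. The falls were in Prkar2b (-0.87 ± 0.08), a regulatory subunit of protein kinase A, Adcy1 (-0.38 ± 0.09) and Camk1 (-0.24 ± 0.06). Prkar2b was at 108, 113 and 114 TPM at P7 and 56.8, 59.4 and 65.6 TPM at P14, without overlap.

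Genes for neuromodulator receptors rose in 22 of 33 cases and fell in 4 (median 0.44). The alpha-1D adrenoceptor gene Adra1d rose from 2.11, 3.3 and 3.95 TPM to 20.2, 16.8 and 18.4 TPM (2.26 ± 0.16, limma adjusted p = 1.98e-06), and Hrh3, the histamine H3 receptor gene, from 20, 20.8 and 22.3 to 50.5, 51.3 and 49.7 TPM, with the 3 libraries of each age within a few TPM of each other. Sstr3, a somatostatin receptor of primary cilia, rose too (1.12 ± 0.09). The falls were in Ntsr1 (-1.30 ± 0.09), the neurotensin receptor of layer 6 neurons, Htr7 (-0.52 ± 0.09), Chrna5 (-0.51 ± 0.12) and Cnr1. Ntsr1 was at 19.3, 17.8 and 17.8 TPM at P7 and 6.1, 7.32 and 7.21 TPM at P14.

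Genes for secreted peptides and factors rose in 23 of 33 cases and fell in 5 (median 0.64). After Igfbp6, the largest rises were in the neuronal pentraxin gene Nptx2 (2.02 ± 0.15), which clusters AMPA receptors and is induced by activity, and in Igfbp4 (1.77 ± 0.09). Igfbp4 was at 45, 51.9 and 46.4 TPM at P7 and 173, 180 and 144 TPM at P14. The largest fall was in the neurotrophin gene Ntf3, at 14.4, 13.7 and 13.8 TPM and then 3.93, 3.73 and 4.09 TPM (-1.60 ± 0.08, limma adjusted p = 3.53e-07). Bdnf, another neurotrophin gene, chosen after its values were seen, went the other way, from 4.82, 6.18 and 6.61 to 16.1, 14.5 and 13.1 TPM (1.19 ± 0.12). Cbln4 (-0.64 ± 0.15), a synaptic organiser, also fell.

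Immediate-early genes, which neurons switch on within minutes of firing, rose in 19 of 24 cases, and Fosl2 fell (-0.41 ± 0.08). The median was 1.12. Arc (3.29 ± 0.20), Egr1 (2.81 ± 0.11) and Fos (2.39 ± 0.17) rose most. Fos was at 2.54, 4.96 and 3.88 TPM at P7 and 24, 24.1 and 22.9 TPM at P14, and Arc at 2.84, 5.39 and 4.89 and 43.1, 61.1 and 48.2 TPM. Members outside the naming rule that did not pass the test were Nr4a2 (31.3 ± 2.62 and 30 ± 2.03 TPM), Nr4a3 (20.9 ± 0.792 and 19.1 ± 1.3 TPM) and Jund (346 ± 14.3 and 292 ± 20.6 TPM). Jund was called lower with quantile normalisation (limma adjusted p = 0.024) and with only the 6 libraries compared (0.0168). Nr4a1, of the same family as Nr4a2 and Nr4a3, rose from 19.8 ± 2.34 to 55.9 ± 9.2 TPM. Handling of the animal and the time to freezing can both reach these genes and no label gives them for each library. The 8 bases TGACGTCA, the cyclic AMP response element bound by CREB, read the same on both strands. They were found between 250 bases before and 50 bases after the start of 3 of the 19 genes of this list that have an entry in the promoter table (Dusp1, Btg2 and Plk2), or 15.8%, against 3.52% of the 10808 expressed genes with an entry. The 150 bases before the start of the genes with the element in that stretch follow, from the RefSeq promoter table (build GRCm38.p6; Dusp1 on the minus strand of chr17:26508473-26508622, Plk2 on the plus strand of chr13:110394894-110395043), with the element in capitals.
Dusp1: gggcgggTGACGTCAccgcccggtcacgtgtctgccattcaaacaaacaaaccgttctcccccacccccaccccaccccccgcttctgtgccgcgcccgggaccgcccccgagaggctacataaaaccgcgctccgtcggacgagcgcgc
Plk2: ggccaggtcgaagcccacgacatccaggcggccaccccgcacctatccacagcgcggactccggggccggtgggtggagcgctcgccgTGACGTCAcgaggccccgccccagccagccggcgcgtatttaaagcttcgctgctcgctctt
Dusp1, a phosphatase that ends MAP kinase signals, was at 7.26, 9.23 and 6.99 TPM at P7 and 16, 25.8 and 22.5 TPM at P14 (1.33 ± 0.19), and Plk2, a kinase that weakens strongly active synapses, at 110, 109 and 117 and 160, 166 and 155 TPM (0.52 ± 0.06). Both were chosen after their values were seen, and a match of letters is not evidence of a bound site. TGACGTCA was in 3.26% of expressed genes that rose at least 2-fold and 1.08% of those that fell at least 2-fold. It was also in 6 of 58 cytosolic ribosomal protein genes with an entry (10.3%), a list that mostly fell, and in 7.5% of the nuclear oxidative phosphorylation genes. A high share of this element is thus not particular to the immediate-early list.

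The cholesterol pathway fell nearly as a whole. Of 24 genes of sterol synthesis and its control, 21 fell, 1 rose and 2 did not pass the test, with a median of -0.82. This list, like the others, was written with earlier results of these data known, and no test of the list as a set was made. Fdps (-1.82 ± 0.08), Mvd (-1.51 ± 0.10) and Acat2 (-1.40 ± 0.05) fell most. Mvd, which makes isopentenyl diphosphate, was at 69.8, 70.1 and 62.4 TPM at P7 and 20.5, 24.8 and 23.9 TPM at P14. Hmgcs1, at the head of the mevalonate branch, went from 469, 394 and 409 to 197, 219 and 198 TPM, and Idi1, which isomerises isopentenyl diphosphate, from 70.9, 71.5 and 73.1 to 33.6, 33 and 35.6 TPM. The sterol demethylase gene Cyp51 went from 46.4 ± 2.75 to 22.6 ± 0.767 TPM. In each of these 4 the ages do not overlap. Ebp, a sterol isomerase gene, rose (0.53 ± 0.11, from 11.2 ± 1.73 to 16.7 ± 1.93 TPM). The master regulator Srebf2 was at 107 ± 3.46 and 109 ± 4.84 TPM, not past the test. Except for Fdps, Mvd, Acat2 and Ebp, the genes of this paragraph were chosen after their values were seen.

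The promoters of these genes share a short word. In the same table, 17 of the 24 genes have an entry, and in 16 of them (94.1%) the 5 bases CCAAT, the core of the site of the factor NF-Y, occur on either strand between 250 bases before and 50 bases after the start, against 42.8% of the 10808 expressed genes with an entry and 41.1% of all 27025 genes in the table. The exception was Acat2. The list was written from general knowledge with earlier results of these data known, so these shares are a description. Among expressed genes with an entry, CCAAT stood in 46.4% of those that rose at least 2-fold and 40.9% of those that fell at least 2-fold. In the cytosolic ribosomal protein list, which also mostly fell, the share was 31%. The sequences below give the 150 bases before the start of 4 genes with the word and of Acat2, 5′ to 3′ on the gene's strand, with CCAAT or its reverse complement ATTGG in capitals (RefSeq, build GRCm38.p6; Mvd chr8:122443423-122443572 minus, Hmgcs1 chr13:119690201-119690350 plus, Idi1 chr13:8885456-8885605 plus, Cyp51 chr5:4104698-4104847 minus, Acat2 chr17:12960726-12960875 minus).
Mvd: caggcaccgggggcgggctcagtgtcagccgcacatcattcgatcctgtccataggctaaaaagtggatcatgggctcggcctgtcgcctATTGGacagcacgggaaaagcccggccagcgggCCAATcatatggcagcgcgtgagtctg
Hmgcs1: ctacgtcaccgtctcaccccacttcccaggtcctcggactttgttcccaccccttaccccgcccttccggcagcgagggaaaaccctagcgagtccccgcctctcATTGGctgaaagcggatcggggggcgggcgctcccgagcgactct
Idi1: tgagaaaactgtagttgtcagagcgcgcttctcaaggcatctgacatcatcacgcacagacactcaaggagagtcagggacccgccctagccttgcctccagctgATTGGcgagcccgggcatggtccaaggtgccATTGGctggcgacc
Cyp51: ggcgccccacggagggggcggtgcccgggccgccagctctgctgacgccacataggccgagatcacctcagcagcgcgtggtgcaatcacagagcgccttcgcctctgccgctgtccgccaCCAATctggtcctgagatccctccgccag
Acat2: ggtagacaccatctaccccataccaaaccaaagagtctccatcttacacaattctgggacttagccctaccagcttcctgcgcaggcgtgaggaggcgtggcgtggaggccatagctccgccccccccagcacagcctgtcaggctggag
Mvd and Idi1 hold the word at 2 places in this stretch, and Hmgcs1 and Cyp51 at 1. The file's values were made on build mm39, so these coordinates belong to the promoter table and not to the deposited values. The words TGANTCA and CACCCCAC and the CArG box were searched in the same way, each on both strands and allowed to overlap the others. TGANTCA stood in 8.45% of the expressed genes that rose at least 2-fold, 4.57% of those that fell at least 2-fold and 5.69% of all expressed genes with an entry, CACCCCAC in 4.41%, 7.26% and 3.9%, and the CArG box in 1.92%, 3.23% and 1.64%.

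Genes of energy supply rose. All 13 mitochondrially encoded mRNAs rose, with a median of 1.45 and a narrow range from mt-Co3 (1.21 ± 0.13) to mt-Co2 (1.70 ± 0.18). mt-Co2, a core subunit of cytochrome oxidase, was at 379, 298 and 431 TPM at P7 and 1443, 1002 and 1156 TPM at P14. These mRNAs are translated inside mitochondria, not on the tagged cytosolic ribosomes, and copies of them lie in the nuclear genome. The RNAs of the mitochondrial ribosome, chosen after their values were seen, moved the same way: mt-Rnr1 was at 287, 382 and 350 TPM at P7, 2456, 1904 and 1832 TPM at P14 and 2807 and 3386 TPM in the P7 input (2.60 ± 0.17), and mt-Rnr2 at 157, 211 and 197, 1220, 892 and 850 and 1438 and 1773 TPM (2.38 ± 0.18). Together the 13 mRNAs summed to 6765 to 8787 TPM at P7 and 20336 to 23514 TPM at P14, against 114544 and 133373 TPM in the P7 input, which is far above both. How far mitochondria came down with the beads at each age was not tested. Nuclear genes of oxidative phosphorylation rose in 36 of 54 cases and none fell, with a far smaller median of 0.25. With quantile normalisation, 30 rose and 4 fell. Cox8a (0.85 ± 0.09), Ndufs1 (0.77 ± 0.06) and Sdha (0.74 ± 0.05) rose most.

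Glucose uptake and glycolysis genes rose in 21 of 25 cases and none fell (median 0.57), although with either rescaling 20 rose and 2 fell. Ldhb, the lactate dehydrogenase subunit that favours use of lactate, went from 115, 134 and 118 TPM to 317, 310 and 297 TPM (1.32 ± 0.07, limma adjusted p = 2.8e-07). Slc2a1 (1.51 ± 0.14), a glucose transporter of vessels and glia, and Aldoc (1.29 ± 0.17), an aldolase of astrocytes, also rose. Of 30 genes of the citric acid cycle and mitochondrial carriers 24 rose and 2 fell (median 0.32). Got1, the cytosolic transaminase of the malate-aspartate shuttle, rose from 66.5, 71.7 and 69.4 to 201, 197 and 178 TPM and its partner Mdh1 rose as well (0.91 ± 0.05). Vdac3, a channel of the outer mitochondrial membrane, fell (-0.34 ± 0.04).

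Messages of the translation machinery fell by small amounts in large numbers. Of 79 cytosolic ribosomal protein genes 68 fell and 1 rose, with a median of -0.44. Rpl10 (-1.04 ± 0.11), Rps26 (-0.84 ± 0.08) and Rps19 (-0.83 ± 0.09) fell most. Rpl41, the shortest ribosomal protein, had the third largest loss of mean TPM, from 15117, 14562 and 14493 to 10890, 11985 and 11845 TPM (-0.35 ± 0.09). With quantile normalisation, which ties the top values of all libraries together, Rpl41 instead came out higher at P14 by 0.42 on the log2 scale. Ribosomal protein genes have many processed copies in the genome, so the values of single members are uncertain. Among 38 initiation and elongation factors 19 fell and 3 rose (median -0.20), and Eef1a2, the elongation factor form of neurons and muscle, rose most. Of 33 proteasome and chaperone genes 19 fell and 5 rose (median -0.17). Cct5 (-0.68 ± 0.06) and Cct2 (-0.55 ± 0.10), subunits of the chaperonin that folds actin and tubulin, and the proteasome subunit gene Psmb6 (-0.57 ± 0.06) fell most. The 5 that rose included the endoplasmic reticulum chaperones Hspa5 (0.40 ± 0.10) and Hsp90b1 (0.39 ± 0.06).

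Transcription factor genes of forebrain neurons leaned downward, with 29 of 66 lower (43.9%), 20 higher (30.3%) and a median of -0.17. Sox11 (-1.87 ± 0.13) and Sox4 (-1.47 ± 0.09), factors of newborn neurons, fell most, and Klf7, which promotes axon growth, fell from 27.4, 28.3 and 34.5 to 11.9, 12.7 and 14.3 TPM (-1.15 ± 0.12). A relative, Klf9, which thyroid hormone induces and which limits axon growth, rose from 29.5, 42.5 and 50.9 TPM to 120, 121 and 122 TPM (1.58 ± 0.16, limma adjusted p = 1.85e-05). The P14 values of Klf9 are almost identical while those at P7 spread widely. Of the upper-layer genes of the cortex, 4 of 15 rose (Lamp5, Calb1, Wfs1 and Cux2) and 7 fell, among them Mdga1 (-0.84 ± 0.07) and Lhx2 (-0.74 ± 0.07). Of 20 deep-layer and subplate genes 6 rose (30%) and 6 fell (30%), with Pcp4 highest (1.29 ± 0.09). Of 19 hippocampal subfield genes 8 rose (42.1%) and 6 fell (31.6%). The shares over all genes tested were 26.7% and 22.8%, so the deep-layer counts lie near them. Spink8, of CA1, went from 1.37, 3.21 and 2.41 to 10.9, 8.24 and 8.8 TPM (1.66 ± 0.25). Since identity factors of a layer and other genes of that layer moved in both directions, these lists give no single shift.

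Genes for factors that act on RNA and chromatin moved in both directions too. Mbnl2, a splicing factor that favours adult exons, was the largest rise among 37 RNA-binding genes, from 8.28, 12.3 and 14 TPM to 63.9, 56.2 and 58.3 TPM (2.30 ± 0.15, limma adjusted p = 1.01e-06). Cpeb1 (1.09 ± 0.15), a regulator of polyadenylation at synapses, and Mbnl1 (0.90 ± 0.11) followed. Hnrnpa1, an abundant nuclear splicing factor, fell from 694, 632 and 665 to 306, 318 and 343 TPM (-1.04 ± 0.07). In all, 10 of the 37 rose (27%) and 14 fell (37.8%), against 26.7% and 22.8% of all genes tested. Of 38 chromatin genes 6 rose (15.8%) and 10 fell (26.3%), among them the high-mobility-group gene Hmgb3 (190 ± 10.1 to 84.3 ± 5.02 TPM), Hmgb2 (-0.82 ± 0.21) and Hmgn2 (-0.59 ± 0.05). Hdac11 (0.67 ± 0.05), the DNA methyltransferase gene Dnmt3a (0.66 ± 0.12) and Hdac4 (0.59 ± 0.09) led the rises. Of 23 imprinted genes 7 were higher and 7 lower (30.4% each), not far from the 26.7% and 22.8% of all genes tested. Impact went from 15.2, 18.7 and 19.7 to 57.3, 56.7 and 57.6 TPM (1.63 ± 0.09), while the cell-cycle inhibitor gene Cdkn1c fell from 10.7, 12.1 and 9.1 to 2.28, 2.72 and 1.52 TPM and the noncoding RNA H19 from 9.59, 9.06 and 6.74 to 1.97, 2.03 and 1.47 TPM. Cdkn1c and H19 were higher in the P7 input, at 23.6 and 23.7 and 20.6 and 17 TPM.

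Genes for surface and matrix molecules changed in both directions. Of 39 axon guidance genes 12 rose (30.8%) and 13 fell (33.3%), against 26.7% and 22.8% of all genes tested (median -0.06), and without P7 replicate 1 the number that rose was 7. Efnb3, an ephrin that stops axons at the midline, fell from 272, 255 and 273 to 114, 133 and 138 TPM (-1.05 ± 0.08), and Nrp2 (-0.89 ± 0.06) and Robo1 (-0.88 ± 0.12) came next. Slit3 (0.72 ± 0.13), Sema3e (0.65 ± 0.15) and Epha4 (0.55 ± 0.13) rose most. Of 40 genes for adhesion molecules 15 rose (37.5%) and 9 fell (22.5%) (median 0.06). Cntnap1, which joins axon and myelin at the paranode, rose from 1.76, 2.81 and 2.68 TPM to 18.2, 17.9 and 16.3 TPM (2.45 ± 0.15), and Icam5, an adhesion molecule of dendrites, from 69 ± 8.66 to 177 ± 2.84 TPM. Chl1, a relative of L1 that guides axons, fell from 60.9, 60 and 72.7 to 25.3, 27.1 and 30.8 TPM (-1.19 ± 0.10). In the extracellular matrix list 11 of 25 rose (44%) and 7 fell (28%). Hapln4, a link protein of perineuronal nets, went from 0.49, 1.22 and 0.81 to 7.34, 5.72 and 5.26 TPM (1.96 ± 0.17), and Vcan (-1.01 ± 0.12), the hyaluronan synthase gene Has3 (3.52 ± 0.483 to 1.26 ± 0.0958 TPM) and Mmp24 (-0.99 ± 0.09) fell. Of 10 cell division genes 7 fell, led by Rrm2 (-1.38 ± 0.08), and Ccnd1 rose (0.65 ± 0.12), and without P14 replicate 1 the number that fell was 4.

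Of 20 stress and amino acid genes 9 rose (45%) and 3 fell (15%), against 26.7% and 22.8% of all genes tested. Their median log2 change was 0.12. Gadd45a rose from 3.8 ± 0.194 to 12.5 ± 2.12 TPM, and Phgdh, the first enzyme of serine synthesis, fell from 11 ± 2.5 to 3.98 ± 0.0635 TPM. Phgdh was at 56.7 and 55 TPM in the P7 input.

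Pairs of related genes whose balance is known to shift after birth were read side by side, since both members of a pair come from the same libraries. Grin2a, the NMDA receptor subunit of mature synapses, rose from 3.34, 3.63 and 4.06 to 13.1, 11.2 and 11.3 TPM (1.46 ± 0.10, limma adjusted p = 1.19e-06), while its juvenile counterpart Grin2b was at 15.6, 14.4 and 19.1 and 20.8, 17.7 and 21.7 TPM and did not pass the test (limma adjusted p = 0.0553). Without P7 replicate 3 or P14 replicate 2, Grin2b did pass it, as higher at P14 (limma adjusted p = 0.00991 and 0.026). Grin2b also passed with a filter of a mean of at least 5 TPM (0.0396) and with the adjustment over the 16563 genes alone (0.0481). With the replicate number as a block in the fit, it passed as well (limma adjusted p = 0.007). Slc12a5, the chloride exporter KCC2, rose from 61.3 ± 1.28 to 131 ± 6.94 TPM, while the importer Slc12a2 was at 3.9 ± 0.106 and 3.89 ± 0.308 TPM and did not pass the test.

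In 3 pairs the order reversed in every library. Scn3a was higher than Scn1a at P7 (4.54, 5.45 and 6.75 against 3.25, 3.32 and 3.86 TPM) and lower at P14 (3.34, 3.75 and 4.3 against 6.06, 6.64 and 6.13 TPM). Hdac2 was higher than Hdac11 at P7 (113, 105 and 102 against 54.8, 57.9 and 59 TPM) and lower at P14 (72.5, 70.6 and 69.4 against 92, 92.8 and 89.3 TPM). Tubb2b fell from 1846 to 177 TPM, below Tubb4a, which rose from 318 ± 29.8 to 493 ± 34.4 TPM.

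Other pairs kept their order, apart from Gap43 and Nrgn, which lay level at P7. Tuba4a rose from 157 ± 15.8 to 384 ± 32.9 TPM and stayed under Tuba1a. For lactate dehydrogenase the change was 0.19 ± 0.05 in Ldha (limma adjusted p = 0.00943, and 0.0729 with median-of-ratios scaling) and 1.32 ± 0.07 in Ldhb. Elongation factor Eef1a2 rose (0.78 ± 0.10) as Eef1a1 fell (-0.44 ± 0.07), which left Eef1a1 at 3421 TPM against 490 TPM. The vesicular transporter Slc17a6 fell (-0.62 ± 0.08) as Slc17a7 rose, the calcium sensor Syt4 fell (-0.56 ± 0.08) as Syt1 rose (1.01 ± 0.10), and Gap43 fell (-1.10 ± 0.07) as Nrgn rose. Both Dlg3 (0.84 ± 0.05) and Dlg4 (0.90 ± 0.06) rose, and both Stmn1 (-1.20 ± 0.09) and Stmn3 (-0.36 ± 0.05) fell. Cox6a1 (0.42 ± 0.06) and Cox7a2 (0.27 ± 0.07), which belong to separate pairs, rose, the latter not with quantile normalisation (limma adjusted p = 0.0816). The muscle forms Cox6a2 (0.22 ± 0.15) and Cox7a1 (0.67 ± 0.34) did not pass the test, nor did Hk1 (0.10 ± 0.05), Hk2 (-0.05 ± 0.11), Mef2a (0.23 ± 0.09), Mef2c (-0.17 ± 0.13), Ezh1 (0.22 ± 0.10), Ezh2 (-0.50 ± 0.28) and Actl6a (-0.25 ± 0.10). Actl6b fell (-0.21 ± 0.06), a call that ended without P7 replicate 2 or P14 replicate 1 (limma adjusted p = 0.0504 and 0.052). Mef2a passed the test without P7 replicate 3 (limma adjusted p = 0.0186) and under the 5 TPM filter (0.0438), Actl6a as lower with either rescaling (0.0276 and 0.0384), Cox7a1 without P7 replicate 2 (0.0478) and Ezh1 without P14 replicate 1 (0.0396). With the replicate block, Mef2a and Cox7a1 also passed (limma adjusted p = 0.0193 and 0.0293). The difference between members of a pair was not tested.

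**Figure D5:**
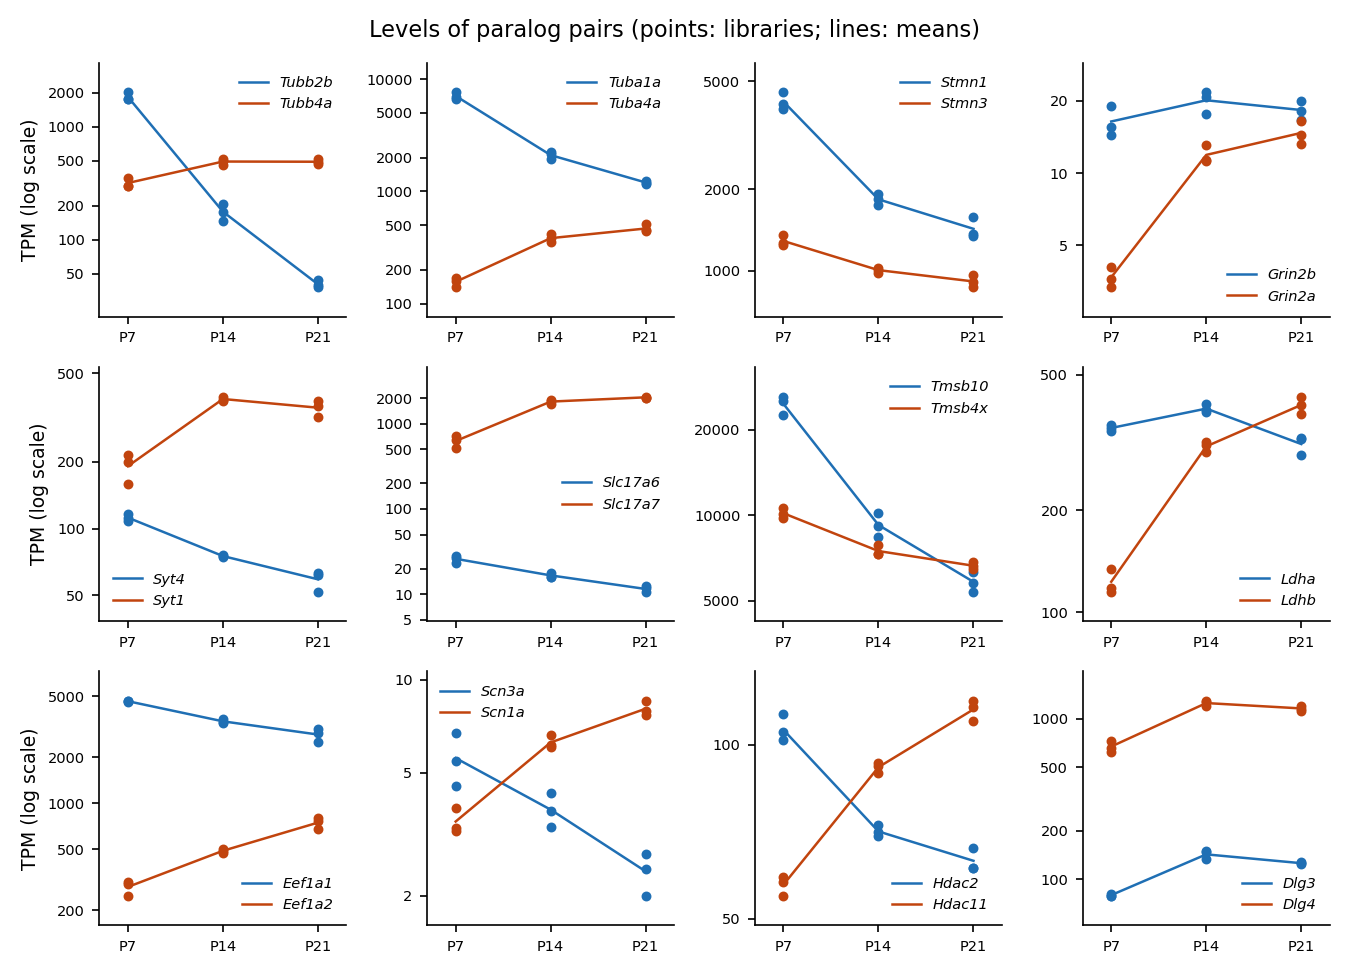
TPM (vertical axes, log scale) of 12 pairs of related genes in the pull-down at P7, P14 and P21, with points for the 3 libraries and lines through the means. Lines cross between P7 and P14 for Tubb2b and Tubb4a, for Scn3a and Scn1a and for Hdac2 and Hdac11.

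The week from P7 to P14 was set beside the next week for 11 of the genes described above, chosen after their values were seen. Between P14 and P21, 8.53% of all tested genes were higher and 19.7% lower, and the second weekly change was greater than the first, as signed values, for 7.46% and smaller for 16.8%. The comparisons share the P14 libraries, so the values stand side by side. Cd24a fell again, to 28.6, 29.7 and 36.6 TPM at P21 (-2.24 ± 0.14, limma adjusted p = 1.19e-05), and its second step did not differ from the first by the test (0.56 ± 0.23, limma adjusted p = 0.113). Median-of-ratios scaling and quantile normalisation each brought the difference past the test (limma adjusted p = 0.0338 and 0.041). Efnb3 fell to 58.4, 56.4 and 54.8 TPM (-1.16 ± 0.08), a step of the same size as the first by the estimate (difference -0.11 ± 0.14, limma adjusted p = 0.618). Vash2, whose first fall was -3.22, changed by -0.72 ± 0.14 in the second week (limma adjusted p = 0.0038, and 0.0738 with a pseudocount of 5), and the steps differed (limma adjusted p = 0.000245). Igfbp6 rose again, to 78.7, 62.8 and 64.2 TPM (3.04 ± 0.17, limma adjusted p = 6.09e-06), by an amount not shown to differ from its first rise (limma adjusted p = 0.115, and 0.00115 with a pseudocount of 5).

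Some genes that changed in the first of these weeks did not pass the test in the second. Calb1 was at 56.3, 55 and 61.1 TPM at P21 (0.18 ± 0.13, limma adjusted p = 0.31), Mbnl2 at 69.2, 66.2 and 73.8 TPM (0.23 ± 0.15, limma adjusted p = 0.29) and Klf9 at 109, 102 and 128 TPM (-0.10 ± 0.16, limma adjusted p = 0.677). In all 3 the second step was smaller than the first (limma adjusted p = 0.000395, 0.000605 and 0.00216). Kif5a (1.13 ± 0.16) and Fam107a (1.40 ± 0.19) rose again between P14 and P21, with second steps smaller than the first (limma adjusted p = 0.0423 and 0.00275). With either rescaling this difference did not pass the test for Kif5a (limma adjusted p = 0.0869 and 0.0626). Ldha turned, rising to P14 and falling to 325, 291 and 323 TPM at P21 (-0.35 ± 0.05, limma adjusted p = 0.00075). Gabra5 fell in both weeks (-0.62 ± 0.07 in the second), to a mean of 80.6 TPM at P21.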

How the data were processed

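The deposited table holds TPM values per gene, made by the authors, for 77179 genes in 11 libraries. The submitters' processing notes name fastp 1.0.1, Salmon 1.10.0, DESeq2 1.46.0 and the build mm39, with no roles or settings, which are not given in the sources used. TPM keeps no depth, so no counting interval can be given. Symbols were matched by gene ID for 50886 genes. Columns were mapped to libraries by their names.

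Values were taken to log2(TPM + 1) and fitted with limma 3.58.1 (R 4.3.3) with 1 mean per group over all 11 libraries, which then share 1 estimate of the spread, with moderated variances and a trend on level. Tests covered the 19008 genes that reached 1 TPM in 2 or more of the 11 libraries, with Benjamini-Hochberg adjustment and a call below 0.05. The procedure was also run on simulated data with independent normal noise on the log2(TPM + 1) scale. Such data meet the assumptions of the fit by construction, so they cannot show how it behaves where the real data depart from them. The p-values measure the spread between these libraries.

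Members, gene lists and tests were chosen with earlier results of these data known. Named are the 12 largest rises and falls among called genes with a mean of at least 10 TPM and no overlap between ages, the 5 largest gains and losses of mean TPM, the 5 highest genes that crossed 1 TPM in each direction, up to 3 rises and 3 falls per list, paralog pairs, and a few marker genes. Some genes that this rule names are not reported here. Predicted and clone-based symbols were left out. Other genes were chosen after their values were seen. Promoters came from a RefSeq table of build GRCm38.p6, which is not the build of the deposited values. Alternatives were other pseudocounts, filters, scalings, fits and single libraries left out.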

Additional observations from a re-analysis of the deposited data

How the results depend on the processing

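Counts of genes past the test stayed within 1.5 times under all 15 alternatives, and counts past a 2-fold change did not. With a pseudocount of 0.1, 1272 genes rose and 1006 fell by at least 2-fold, and with a pseudocount of 5, 366 and 270. With a filter of a mean of at least 5 TPM, 405 fell by at least 2-fold, with fewer genes tested. With only the 6 libraries compared in the fit, 4521 genes were higher and 3997 lower. Leaving out 1 library at a time gave 4337 to 4652 higher and 3658 to 3955 lower genes, and 725 to 892 and 601 to 686 past 2-fold. The labels do not pair the libraries by number, and deviations of same-numbered libraries correlated at 0.028, 0.012 and 0.177 for replicates 1, 2 and 3, against -0.123 to 0.102 for different numbers. Only replicate 3 correlated best with its own number, and it also carries Xist at both ages. A fit with the replicate block called 4983 genes higher and 4332 lower, and brought Grin2b (limma adjusted p = 0.007), Mef2a (0.0193) and Cox7a1 (0.0293) past the test as higher. Called genes were 53.4% higher, 47.6% with median-of-ratios scaling and 48.9% with quantile normalisation, under which the median of all tested genes went from 0.03 to 0. Under quantile normalisation Rpl41 reversed, to 0.42. Of the 212 called genes named, 205 stayed called in the same direction under every alternative that gave a value, and 6 lost the call under at least 1. Settings that ended calls of named genes or moved list counts past 1.5 times are given beside most of them. In addition, pumps and calcium-binding genes that fell were 4 with either rescaling, extracellular matrix genes that rose were 7 with no filter, and stress genes that fell were 5 with median-of-ratios scaling. Without depth, the precision at low level cannot be given, and the 1 TPM pseudocount shrinks changes there.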

Other observations

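Among genes with a predicted symbol, which the naming rule left out, 4 changed by more than 4 on the log2(TPM + 1) scale, and they are given here after their values were seen. Gm28438 had the largest change of all, 7.97. It is listed at 0 in all 3 pull-down libraries at P7, at 305, 181 and 283 TPM at P14, at 383, 470 and 249 TPM at P21, and at 598 and 1246 TPM in the P7 input. Gm12918 is listed at 0 in every P7 and P21 library and at 25.1, 15.4 and 48.6 TPM at P14. Gm7488 was at 21.6, 17 and 10.7 TPM at P7 and is listed at 0 in every P14 and P21 library. Gm49601 went from 0.311, 0.645 and 1.07 TPM at P7 to 39.2, 32.2 and 32.1 TPM at P14 and 143, 100 and 123 TPM at P21. An exact 0 in a table without counts can be a failed estimate, so no ratio is given for the first 3.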
